A study of Mus musculus with 2 samples.

Results

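The genes described here are 44 genes that fold, modify, import or dispose of proteins in the endoplasmic reticulum (ER) or carry the unfolded protein response, and they were named by function in a list of symbols drawn up with earlier results of these data known. All 44 were among the 22909 genes named on the arrays. They were grouped by role into 11 luminal chaperones and their cofactors, 5 protein disulfide isomerases, 5 stress sensors together with Xbp1, 7 genes of the integrated stress response, 7 genes of ER-associated degradation, and 9 subunits of the translocon and signal peptidase. The study asked how gene expression of the colon differs when the prostaglandin E2 receptor EP4 is deleted from the intestinal epithelium. RNA of whole colon was measured on 2 Agilent mouse expression arrays, 1 for Villin-Cre mice and 1 for EP4 cKO mice, whose genotype is Villin-Cre; EP4flox/flox. Both groups carried the Villin-Cre transgene, which drives Cre recombinase in intestinal epithelial cells, and both were of the C57BL/6 strain. The mice of the study were 8 weeks old, and each array received RNA combined from 3 colon pools. The transgene is not known to be active in muscle, stroma and immune cells, which whole colon also holds, and recombination in each cell type was not measured here. With 1 array per genotype no spread between mice can be given, and no test between the genotypes was made.

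Proteins that are to be secreted or placed in a membrane enter the ER through the Sec61 channel, lose their signal peptide and fold with the help of luminal chaperones and disulfide isomerases. When unfolded proteins accumulate, the membrane sensors Ire1 (genes Ern1 and Ern2), Atf6 and Perk (gene Eif2ak3) respond: Ire1 splices the mRNA of the transcription factor Xbp1, Atf6 is cleaved to become a transcription factor, and Perk phosphorylates the initiation factor eIF2 alpha, which slows translation but favours that of Atf4. In the colon this machinery is known for the load carried by goblet cells, which secrete mucin, and Ern2 is a form of Ire1 typical of mucosal epithelium.

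Several of these genes are textbook targets of Atf6, Xbp1 or Atf4, and the short sequences those factors read are shown here because the genes that carry them can then be set beside their values. RefSeq promoter windows of 300 bases, 250 before the transcription start and 50 after it on GRCm38.p6, were at hand for 36 of the 44 genes and were searched on both strands. The ER stress response element ERSE, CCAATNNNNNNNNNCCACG, is read by Atf6 with the factor NF-Y. ERSE-II, ATTGGNCCACG, is a second form of it, and it holds the same CCACG end. The C/EBP-Atf response element, searched as TTGCATCA, is read by Atf4 and its partners. In the lines that follow, each stretch runs 5′ to 3′ along the gene's own strand, and capitals mark the matched element.
Hspa5, chr2:34772015-34772053, plus strand, ERSE: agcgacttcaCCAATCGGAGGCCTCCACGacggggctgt
Pdia6, chr12:17266481-17266519, plus strand, ERSE: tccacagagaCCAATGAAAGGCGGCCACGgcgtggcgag
Creld2, chr15:88819510-88819548, plus strand, ERSE in the reverse direction: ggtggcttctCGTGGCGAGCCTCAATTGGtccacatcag
Hsp90b1, chr10:86705523-86705666, minus strand, ERSE forward and then in the reverse direction: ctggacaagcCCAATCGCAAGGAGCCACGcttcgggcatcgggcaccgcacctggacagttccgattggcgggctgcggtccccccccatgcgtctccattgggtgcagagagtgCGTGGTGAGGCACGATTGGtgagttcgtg
Herpud1, chr8:94386307-94386397, plus strand, the Atf4-type element and then ERSE-II: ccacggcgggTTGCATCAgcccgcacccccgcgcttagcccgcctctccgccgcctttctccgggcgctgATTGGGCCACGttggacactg
Chac1, chr2:119351039-119351066, plus strand, the Atf4-type element: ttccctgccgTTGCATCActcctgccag

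The values in this text are scaled signals in arbitrary units, the software's background-subtracted intensity of a spot after both arrays were brought to the same trimmed mean, and log2 ratios of EP4 cKO over Villin-Cre. A gene is given by its brightest probe. A probe that cleared background on a single array has a bound for its ratio, taken against the lowest signal called well above background on the other array, 125 for Villin-Cre. Of the 22909 named genes, 14668 had a ratio, and their median was -0.10. The software's own error of a ratio was 0.20 for most of the 41 members measured on both arrays and 0.24 at the highest, and it covers the scan, not the difference between mice.

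Taking the arrays as a whole, the share of gene probes called well above background was 45.4% in Villin-Cre and 51.6% in EP4 cKO, and no spot was saturated. Ptger4, the deleted gene, had 6227 and 5661 by its brighter probe, a log2 ratio of -0.14, and 393 and 592 by its dimmer one, so in whole colon these probes did not separate the labels. Whether either probe lies in the deleted part is not given in the sources used here, and the genotypes are those of the labels. All 10 colonocyte markers had a ratio, 7 of them above 0, from -0.75 for Guca2a to 1.80 for Krt20, with Vil1 at 0.52, Epcam at 0.56 and Cdh1 at -0.10. Of 8 smooth muscle markers 5 had a ratio, with Acta2 at 18006 and 27719, Actg2 at 7308 and 12072, Tagln at 4224 and 5490, and Cnn1 at 479 and 72.3. Myh11, Lmod1 and Synpo2 were not clearly over background in either genotype, and Des was so in EP4 cKO only, at a signal of 108. Of 9 plasma cell markers, another cell type rich in ER, 4 had a ratio. Mzb1 was not well above background in either, Jchain stood at 156 and 181, Prdm1 at 186 and 527, and Sdc1, which epithelium also expresses, at 7296 and 8163, while Derl3 was at least 1.56-fold higher. The summed signal of the 4 was 7746 and 9066, most of it Sdc1. Of 6 pancreas markers 3 had a ratio, with Cela1 at -1.02, Cel at -0.03 and Ctrb1 at 0.43. Their summed signal was 324084 in Villin-Cre and 159680 in EP4 cKO, nearly all of it Cela1. Of 9 leukocyte markers 7 had a ratio, with a median of 0.00 and a range from -0.79 for Csf1r to 0.97 for Ptprc, and Cd3e was at -0.10. Of 7 enteroendocrine and tuft cell markers 6 had a ratio, with Chga at -1.53, Chgb at -1.22 and Pyy at -0.63, and a summed signal of 92897 and 46192. Of the marker lists, that of fibroblasts had the lowest median: 6 of 7 had a ratio, all 6 at -3.15 or below with a median of -4.66, and their summed signal was 13756 in Villin-Cre and 301 in EP4 cKO. Col1a1, Col3a1, Lum and Col6a1 were not well above background in EP4 cKO, so their ratios are bounds and that sum includes background. The RNA on the arrays, labelled as colon, thus held unequal levels of stromal markers, and the part of this in the members' ratios was not tested.

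All 44 genes had a ratio, and their median was 0.22. Of the 44, 32 had a ratio above 0, or 72.7%, beside 36.3% of all genes, and 29 of these 32 were measured on both arrays. 37 lay above the median of all genes. Among the 41 measured on both arrays, 12 were further from 0 than 2 of the software's errors. More than 1.5-fold higher in EP4 cKO were 8 of the 44, or 18.2%, beside 9.87% of all genes, and these were Chac1, Trib3, Asns, Ppp1r15b, Herpud1, Pdia3, Sdf2l1 and Manf. Chac1 and Trib3 had a ratio only through their signal in EP4 cKO, and over genes measured on both arrays the count was 6 of 41, or 14.6%, beside 8.90%. More than 1.5-fold lower were 0 of the 44, beside 18.7% of all genes. At 2-fold the count was 2, or 4.55%, beside 4.89% of all genes, so at that fold the share was near the background, and both calls, Chac1 and Trib3, were bounds. No member was more than 2-fold lower, beside 7.98% of all genes. With signals scaled to the 75th percentile of each array, which moved the median of all genes to 0.00, 6 members were more than 2-fold higher, beside 6.42% of all genes. Without the 3 bounds, none of the remaining 41 was more than 2-fold higher as reported. The members were mostly bright genes, 30 of the 44 lying in the brightest 3 of 10 equal groups of genes, and there the median was 0.24 for the members and -0.05 for all genes.

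**Figure D1:**
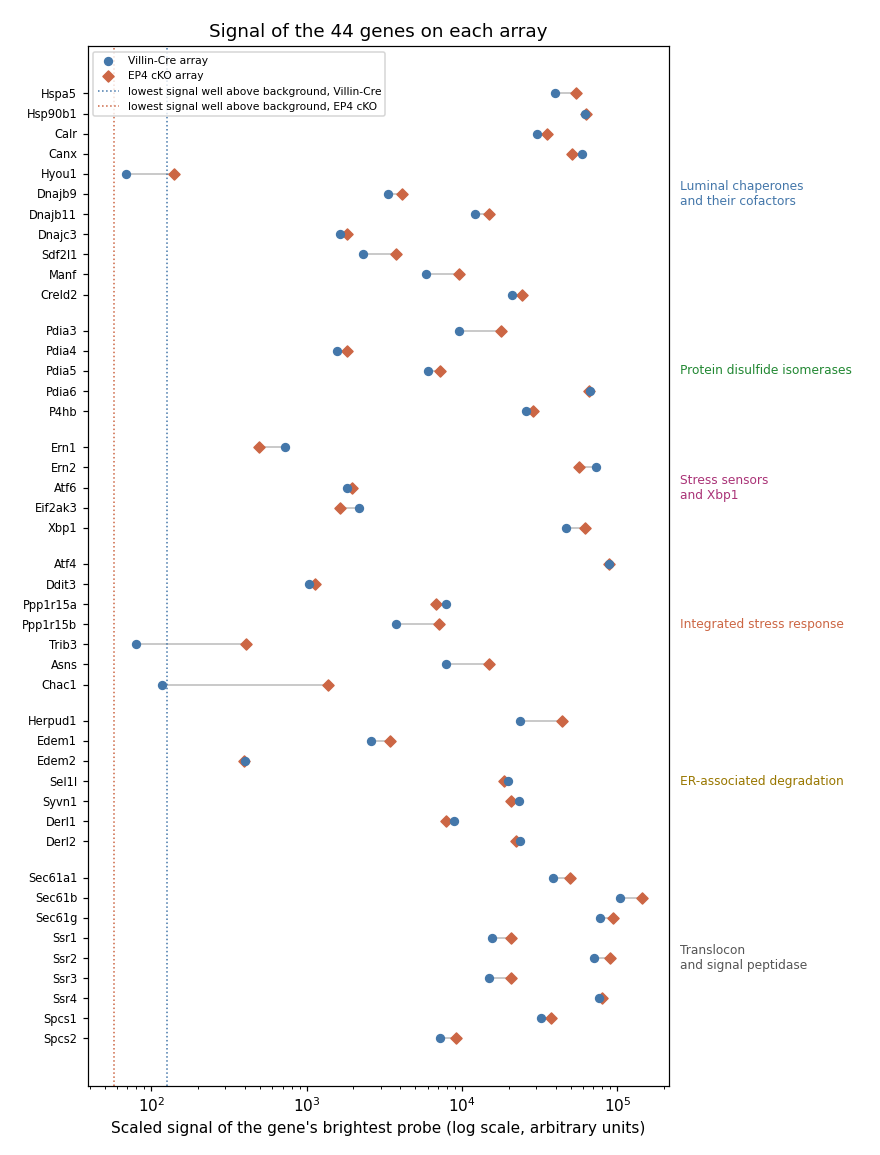
Scaled signal of the brightest probe of each of the 44 genes (log axis, arbitrary units) for Villin-Cre (circles) and EP4 cKO (diamonds), grouped by role, 1 array each. Most pairs lie close together at high signal, and the widest gaps are those of Chac1 and Trib3, whose Villin-Cre circles lie left of the lowest signal well above background of 125 (dotted line).

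The chaperones of the ER lumen were close to even or somewhat higher in EP4 cKO, with a median log2 ratio of 0.23. Of the 10 measured on both arrays, 9 were above 0. Hspa5, the Hsp70 chaperone BiP that also holds the stress sensors inactive, had a signal of 39386 in Villin-Cre and 54404 in EP4 cKO, a log2 ratio of 0.47. Its 3 probes gave 0.37 to 0.51. Hsp90b1, the Hsp90 of the ER, stood at 62311 and 63031, a ratio of 0.02. Its promoter holds 2 copies of the ERSE, and whether they are bound was not measured. The lectin chaperones, which hold newly made glycoproteins, had small ratios of opposite sign. Calr had 30284 and 34996, a ratio of 0.21, and Canx 59305 and 51147, a ratio of -0.21, the only chaperone below 0. Both ratios were within 2 of the software's errors of 0. The second probe of Canx gave 0.01, and its side of the median of all genes depended on the setting.

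Among the cofactors, Sdf2l1 and Manf were higher by more than 1.5-fold. Sdf2l1, which works with the Hsp40 proteins of the ER, had 2303 in Villin-Cre and 3756 in EP4 cKO, 1.63-fold and above 92.0% of all genes. Manf, a secreted factor that binds BiP and is released under ER stress, had 5886 and 9545, 1.62-fold, and 0.86 on the log2 scale by its second probe. The Hsp40 cochaperones of BiP showed smaller differences, with log2 ratios of 0.30 for Dnajb9, 0.30 for Dnajb11 and 0.14 for Dnajc3. Creld2, an ER-resident protein named for its EGF-like repeats, stood at 20866 and 24478, a ratio of 0.23. Hyou1, the large Hsp110-type chaperone that exchanges the nucleotide of BiP, was dim. Its brightest probe had 68.7 in Villin-Cre, not well above background, and 139 in EP4 cKO, a lower bound of 1.11-fold for that probe. All 3 probes of Hyou1 were well above background on the EP4 cKO array alone, and 1 of them had the lower signal there, 73.3 against 98.6. The direction of Hyou1 is thus not settled by these probes, and it counts among the members above 0 through its brightest probe.

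Of the 5 disulfide isomerases, which form and rearrange the disulfide bonds of folding proteins, Pdia3 stood apart. Pdia3, the isomerase that works with Calr and Canx on glycoproteins, had 9590 in Villin-Cre and 17779 in EP4 cKO, 1.85-fold. Its 2 probes gave log2 ratios of 0.89 and 0.81. The other four lay between -0.02 and 0.24. They were P4hb at 25649 and 28488, the most studied member of the family, Pdia4 at 1578 and 1819, Pdia5 at 6059 and 7175, and Pdia6 at 66724 and 65917. Those 4 ratios, 0.15 for P4hb, 0.21 for Pdia4, 0.24 for Pdia5 and -0.02 for Pdia6, were within 2 of the software's errors of 0.

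3 of the sensors had lower signals in EP4 cKO. Ern1, the widely expressed Ire1, had 725 in Villin-Cre and 491 in EP4 cKO, a log2 ratio of -0.56, and -0.24 with normexp and quantile normalization. Eif2ak3, which encodes Perk, had 2170 and 1631, a ratio of -0.41. Ern2, the Ire1 of mucosal epithelium, had 72898 and 56832, a ratio of -0.36, and -0.44 by its second probe. The ratio of Ern2 was within 2 of the software's errors of 0. Of these 3 genes, Ern1 alone lay more than 2 errors below the median of all genes as reported. Relative to that median, Ern1 and Eif2ak3, with 1 probe each, were lower under each of the 10 settings tried. Without a filter on dim probes Eif2ak3 was only 0.04 below it. Ern2 was lower under all settings but that one, where it was 0.01 above. When signals were scaled to the E1A control spots, which raised the median of all genes to 1.01, these 3 ratios were above 0 as well. Atf6, the sensor that is itself a transcription factor, stood at 1820 and 1960, a ratio of 0.11.

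Xbp1, the transcription factor made active by Ire1 splicing, was higher in EP4 cKO, unlike Ern1, Ern2 and Eif2ak3. Its signal was 46395 in Villin-Cre and 61971 in EP4 cKO, a difference of 0.42 on the log2 scale, and its 3 probes ranged from 0.42 to 0.46. The place of the probes in the mRNA was not used, and splicing of Xbp1 was not analysed here. In RNA of whole tissue, fewer cells of a type and less RNA per cell cannot be told apart, and this holds for Ern2 and for every other gene here. Goblet cell markers, given beside Ern2 because goblet cells express it, were mixed: 10 of 15 had a ratio above 0, from -0.94 to 1.31, with Muc2, the main gel-forming mucin, at -0.06, Tff3 at -0.75, Clca1 at 1.31, Fcgbp at 0.64, Zg16 at -0.23 and Spdef, a transcription factor of goblet cells, at 0.09. The summed signal of the 15 markers was 1805086 in Villin-Cre and 2212828 in EP4 cKO, and without Clca1 that of the other 14 was 1509560 and 1479392. The part of goblet cells in the ratios of Ern2 and Xbp1 was not tested.

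The largest differences were in the integrated stress response, the arm downstream of eIF2 alpha. Chac1, which breaks down glutathione and is a target of Atf4, had 117 in Villin-Cre, not well above background, and 1371 in EP4 cKO. It was at least 10.9-fold higher, a bound that ranked above 99.4% of all genes. Trib3, a pseudokinase induced by Atf4 and Ddit3, had 80.2 and 410, at least 3.27-fold higher. Each rests on 1 probe, dim in Villin-Cre, and with normexp and quantile normalization the log2 ratios were 2.48 for Chac1 and 1.105 for Trib3, beside bounds of 3.45 and 1.71 as reported. Asns, asparagine synthetase and another target of Atf4, was measured on both arrays at 7874 and 14894, 1.89-fold, and its 2 probes gave log2 ratios of 0.92 and 0.90.

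The regulators of the same arm were close to even, except Ppp1r15b. Atf4, whose output is set largely by translation, had 88085 in Villin-Cre and 87807 in EP4 cKO, a log2 ratio of -0.0045, with 0.21 by a dimmer probe. Ddit3, the transcription factor Chop, had 1039 and 1123, a ratio of 0.11. The 2 regulatory subunits that lead protein phosphatase 1 to eIF2 alpha differed, with 1 probe each. Ppp1r15a (Gadd34), which is induced by stress, had 7848 and 6847, a ratio of -0.20. That was within the software's error of 0, and its side of the median of all genes depended on the setting. Ppp1r15b, which is made constitutively, had 3751 and 7087, a ratio of 0.92. Among the 5 genes of this arm measured on both arrays the median was 0.11, beside 0.92 over all 7, so that the group's median rests on the 2 bounds.

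Of the genes of ER-associated degradation, which sends misfolded proteins back to the cytosol for the proteasome, Herpud1 was the exception. Herpud1, a membrane protein that gathers the degradation complex and is strongly induced by ER stress, had 23577 in Villin-Cre and 43963 in EP4 cKO, 1.86-fold, with log2 ratios of 0.90 and 0.98 from its 2 probes. Edem1, which hands glycoproteins over to degradation, had 2581 and 3420, a ratio of 0.41. Its relative Edem2 had 398 and 392, a ratio of -0.02. The ubiquitin ligase and its partners were all slightly below 0, with 23425 and 20627 for the ligase Syvn1 (ratio -0.18), 19660 and 18654 for its adaptor Sel1l (ratio -0.08), 8823 and 7835 for the channel protein Derl1 (ratio -0.17), and 23449 and 22181 for its relative Derl2 (ratio -0.08). None of these 4 was further from 0 than the software's error. Relative to the median of all genes their side depended on the setting, and Sel1l gave 0.24 by a dim second probe.

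**Figure D2:**
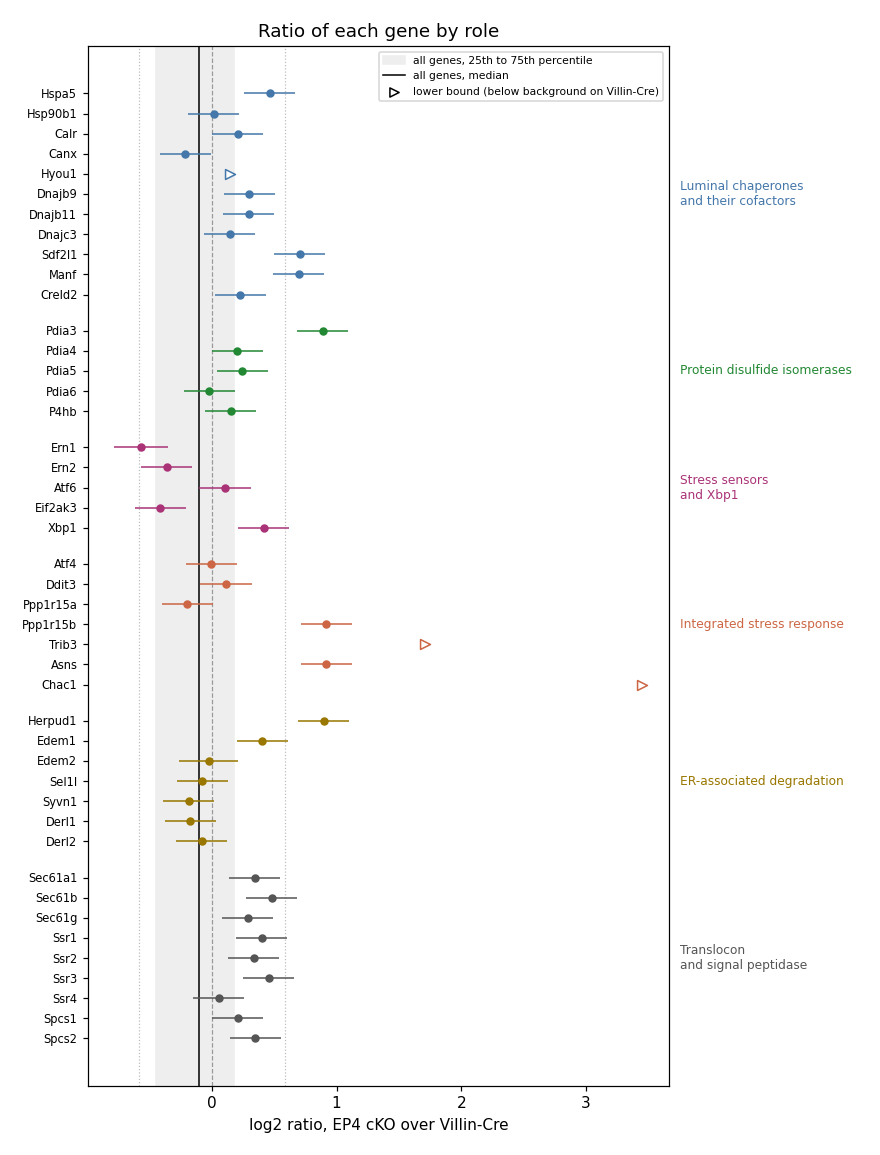
Log2 ratio of EP4 cKO over Villin-Cre for each gene by role. Bars are the software's error of the ratio (about 0.20, scan error only), open triangles are lower bounds, the solid line is the median of all genes at -0.10, the grey band their interquartile range, the dashed line 0 and the dotted lines 1.5-fold. Genes right of the upper dotted line are Sdf2l1, Manf, Pdia3, Ppp1r15b, Trib3, Asns, Chac1 and Herpud1.

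The 9 genes of protein entry formed the most even group. All 9 had a ratio above 0 by their brightest probes, from 0.06 to 0.48, with a median of 0.35, and none passed 1.5-fold. Only Sec61b and Ssr3 were further from 0 than 2 of the software's errors, and the second probe of Ssr3 gave -0.53. In the channel itself, the pore subunit Sec61a1 had 38690 in Villin-Cre and 49187 in EP4 cKO (log2 ratio 0.35), the small subunit Sec61b 103877 and 144907 (0.48), and Sec61g 76816 and 93824 (0.29). The brightest probe of Sec61g was spotted 10 times on each array, and the ratios of those spots ran from 0.23 to 0.36 with an SD of 0.04, which is the error between spots on 1 array and not between mice.

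The translocon-associated proteins, which help some signal sequences to open the channel, gave 0.40 for Ssr1 (15660 and 20675), 0.34 for Ssr2 (70864 and 89588), 0.46 for Ssr3 (14962 and 20517) and 0.06 for Ssr4 (76354 and 79330). The signal peptidase subunits, which belong to the enzyme complex that cuts off the signal peptide, gave 0.21 for Spcs1 (32393 and 37445) and 0.35 for Spcs2 (7202 and 9173). Averaging all probes of a gene put Sec61a1 at -0.15 and Ssr3 at -0.04, so 7 of 9 were then above 0, and with normexp and quantile normalization Ssr4 was at -0.01, so 8 of 9 were.

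How far a ratio depends on the probe could be seen in 21 of the genes, which had more than 1 probe well above background on both arrays. For 16 of them all probes had the same sign, and 14 had probes within 0.2 of each other on the log2 scale. Asns, Herpud1, Pdia3 and Manf, which were more than 1.5-fold higher, were among the 16. Disagreement was largest for Ssr3, whose second probe gave -0.53 at a signal of 1111 in Villin-Cre, and for Sec61a1, whose dimmer probes gave -0.27 and -0.52. The signs also differed for Atf4, Canx and Sel1l. For 21 of the 44 genes, Chac1, Trib3, Sdf2l1, Ppp1r15b and Ern1 among them, there was 1 probe and no such comparison.

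**Figure D3:**
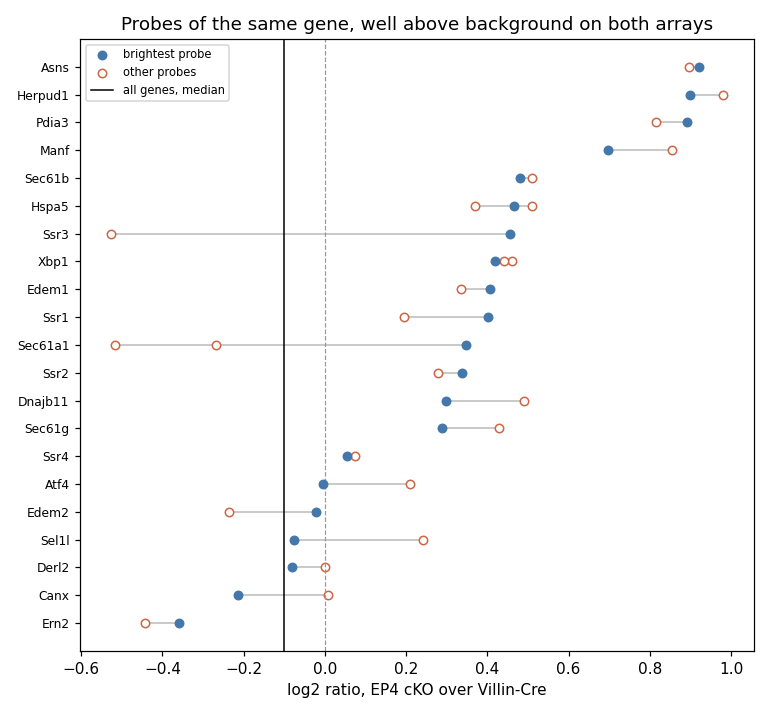
Log2 ratio of EP4 cKO over Villin-Cre for each probe of the 21 genes that had more than 1 probe well above background on both arrays; filled points are the brightest probe, open points the others, and the solid line the median of all genes at -0.10. The probes of Asns, Herpud1, Pdia3 and Manf all lie at 0.70 or above, while Ssr3 and Sec61a1 have probes on both sides of 0.

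Set beside the promoter elements, the genes that carry an ERSE had a lower median ratio than those without it. For ERSE-II and the Atf4-type element, with 2 carriers each, the carriers had the higher median. An ERSE was found in 8 of the 36 genes with a promoter, Hspa5, Hsp90b1, Calr, Canx, Dnajc3, Creld2, Pdia6 and Syvn1. It was found in 0.119% of all 32851 promoter windows. The ERSE was first described in promoters of ER chaperones, so its share among these genes is no independent result. The log2 ratios of the 8 carriers ran from -0.21 to 0.47 with a median of 0.08, beside a median of 0.29 in the 28 genes without it. Those 28 include Herpud1, Dnajb11 and Chac1, which carry other elements. ERSE-II was found in Herpud1, at position -52 from the start, and in Dnajb11, just after the start, and in 0.0365% of all windows. The median ratio of these 2 genes was 0.60, beside 0.21 in the 34 without it. The Atf4-type element TTGCATCA was found in Chac1, at position -193 from the start, and in Herpud1, at position -112, and in 0.895% of all windows. The median ratio of its 2 carriers was 2.17, beside 0.21 in the 34 without it, and the ratio of Chac1 is a bound. The Xbp1-type element TGACGTGG was in none of the 36, and in 0.676% of all windows. A match describes letters in a window only, and no binding was measured. Whether the medians differ between carriers and other genes was not tested.

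Around these genes, 149 other genes of ER folding, transport, glycosylation, degradation and eIF2 stress were read from lists drawn up for this purpose. 144 had a ratio, with a median of 0.02, beside 0.22 for the 44. More than 1.5-fold higher were 17, or 11.8% beside 9.87% of all genes, and lower 14, or 9.72% beside 18.7%. More than 2-fold higher were 6, or 4.17% beside 4.89%, and lower 5, or 3.47% beside 7.98%, so the shares of higher genes were near the background. The largest was Creb3l3, an ER membrane transcription factor of liver and intestine that is activated like Atf6, with 274 in Villin-Cre and 16208 in EP4 cKO, a log2 ratio of 5.88 from 1 probe. It was followed by Bhlha15, a transcription factor of secretory cells, at 469 and 1667 (1.83), by the calcium-binding proteins Nucb2 at 405 and 1240 (1.62) and Rcn1 at 350 and 904 (1.37), and by Stc2, a secreted glycoprotein induced by Atf4, at 376 and 800 (1.09). Casp12, a caspase of the ER, was at least 2.08-fold higher. With normexp and quantile normalization Stc2 was at 0.99 and Casp12 at 0.89, short of 2-fold.

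On the other side, Gdf15, a cytokine released by stressed cells, had 6066 and 1661, a log2 ratio of -1.87, and Map3k5, a kinase that acts downstream of Ire1, had 1387 and 621, a ratio of -1.16. Agr3, a relative of the disulfide isomerases, was at least 3.47-fold lower. Serpinh1, the chaperone of collagen, had 528 and 197, a ratio of -1.43, and Fkbp10, a proline isomerase that acts on collagen, was at least 5.14-fold lower. Fibroblast markers went the same way as these collagen helpers, with Col1a2 at 3613 and 111 and Dcn at 6006 and 110. With normexp and quantile normalization the log2 ratios were -0.78 for Serpinh1, -0.88 for Fkbp10, -0.85 for Map3k5 and -0.53 for Agr3, all short of 2-fold, and the fibroblast markers Col1a2 and Dcn moved from -5.03 to -3.35 and from -5.77 to -4.20. The part of fibroblasts in the ratios of Serpinh1 and Fkbp10 was not tested.

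**Figure D4:**
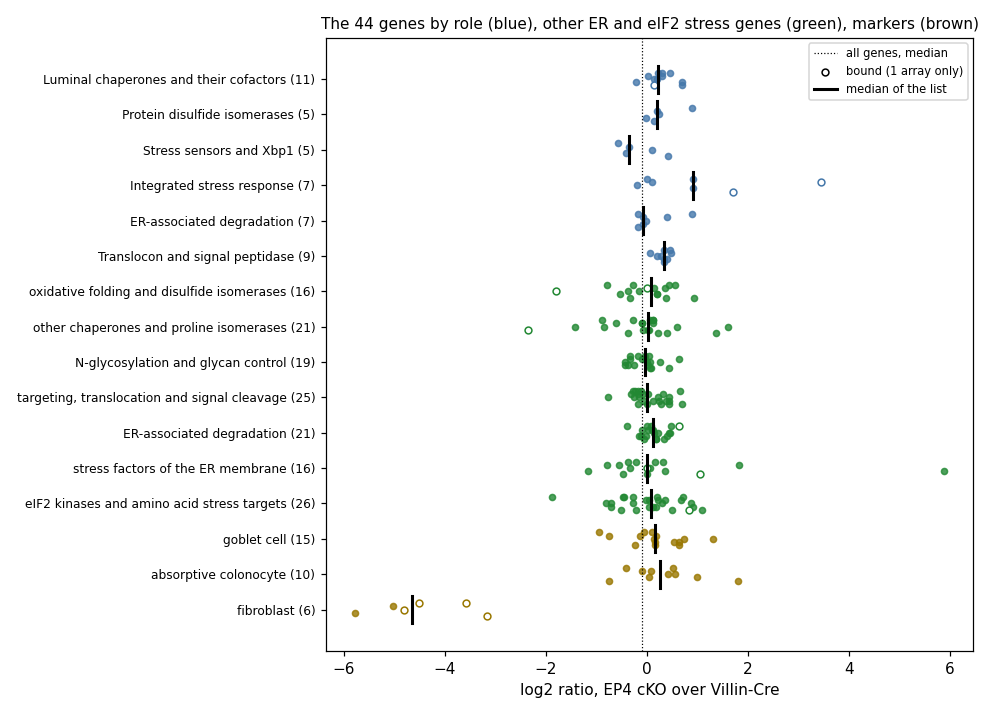
Log2 ratio of EP4 cKO over Villin-Cre for the 44 genes by role (blue), the other ER and eIF2 stress genes by list (green) and 3 marker lists (brown), with the number of genes in brackets; open points are bounds and thick bars medians. The translocon group lies wholly right of the median of all genes (dotted), Creb3l3 is the green point at 5.88, and the fibroblast markers lie between -5.77 and -3.15.

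The scalings moved the ratios of the members together, so the members were also read against the median of all genes under each setting. The members' median stayed above it by 0.26 to 0.61. A scaling shifts the members and the other measured genes alike, so the scalings could hardly change this gap. The 0.61 came without a filter on dim probes, where the median of all genes fell to -0.37 and that of the members was 0.24. 30 of the 44 genes lay above the median of all genes under all settings that gave them a value, among them Hspa5, Xbp1, Herpud1, Asns, Chac1, Trib3 and Ppp1r15b, 2 lay below it (Ern1 and Eif2ak3), and 12 changed sides.

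**Figure D5:**
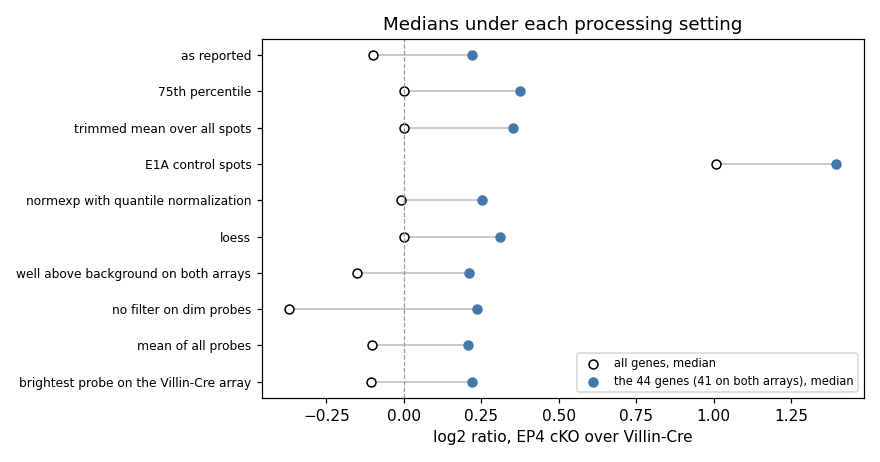
Median log2 ratio of EP4 cKO over Villin-Cre of the members (filled) and of all genes (open) under each of the 10 settings. Scaling to the E1A control spots moved both to the right, to 1.40 and 1.01, and the members' median lies right of that of all genes in every setting, by 0.26 to 0.61.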

How the data were processed

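The authors deposited 1 scanner file per array, Agilent single-colour (Cy3) expression arrays with 62976 spots each, read by Feature Extraction (11.5.1.1 in the submitters' processing notes, 12.0.3.1 in the file headers). The deposited intensity used was the processed signal, from which the software had subtracted background. Control spots and outlier spots (147 and 126) were left out, spots of a probe averaged, and each array scaled to a trimmed mean of 2500 without 2% at each end, as the study's methods state, which moved the trimmed means of 724 and 931. Of the probes, 58.3% were named through RefSeq accessions. The sample labels gave the groups. Genes named are all members, other ER genes more than 2-fold apart (at most 10 each way, and 5 by bounds), and listed markers. The members and lists were chosen with earlier results of these data known. No test was possible with 1 array per genotype, and the folds of 2 and 1.5 serve as calls. Alternatives were other scalings, loess (span 0.3), normexp (offset 50, on the median signal) with quantile normalization, other filters on dim probes and other choices of probe. The ratio steps were tested on simulated data. Python 3.11.15, numpy 2.4.6, pandas 2.3.3, statsmodels 0.14.6, matplotlib 3.10.9, R 4.3.3 and limma 3.58.1 were used. Promoter sequences are those of RefSeq on GRCm38.p6, and probe coordinates were not used.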

Additional observations from a re-analysis of the deposited data

How the results depend on the processing

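The members' median log2 ratio of 0.22 was 0.38 when arrays were scaled to the 75th percentile, 0.35 with the trimmed mean over all spots, 1.40 with the E1A control spots and 0.31 after loess. Over the same 4 settings the median of the other ER and eIF2 stress genes, 0.02 as reported, was 0.18, 0.15, 1.20 and 0.089. The count of members more than 2-fold higher, 2 as reported, was 6 with the 75th percentile (6.42% of all genes), 6 with the trimmed mean over all spots (6.18%), 38 with the E1A control spots (50.8%), and 0 when bounds were left out (4.05%). With the E1A control spots 44 members were more than 1.5-fold higher, beside 79.2% of all genes. No member was more than 1.5-fold or 2-fold lower in any setting. The shares of all genes lower are given only as reported, 18.7% at 1.5-fold and 7.98% at 2-fold. With the E1A control spots the median of all genes was 1.01, so a count of 0 there says little. The 8 members more than 1.5-fold higher kept ratios above 0 in every setting that gave them a value. These 8 were the highest as reported, and the 75th percentile, all-spot and E1A scalings raised every member, so this was a weak check. Of the 13 members and other ER genes called by 2-fold, 1 changed sign: Map3k5, at -1.16, was at 0.016 with the E1A control spots. The call was also lost with those spots for Gdf15 (-0.69), Serpinh1 (-0.25) and Agr3 (-0.62), after loess for Map3k5 (-0.97), and with normexp and quantile normalization for Stc2, Casp12, Serpinh1, Map3k5, Fkbp10 and Agr3. The cause of the calls lost with normexp and loess was not tested. The 3 other scalings moved the median of all genes from -0.10 to 0.00, 0.00 and 1.01. No paired analysis was possible because there was 1 array per genotype. Precision is limited by the number of arrays, and signal over background limits Chac1, Trib3 and Hyou1 to bounds.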
